A study of Arabidopsis thaliana with 12 samples.

Results

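The phi and tau glutathione S-transferases of *Arabidopsis thaliana* were followed in leaf RNA of the tRNA methyltransferase mutant *trm5-1* and of wild type. The members were the genes named GSTF (phi class, 10 genes) and GSTU (tau class, 27 genes) on a given list of locus identifiers, which made 37 of the 33610 genes in the count table. Every one of the 37 loci carried the GSTF or GSTU name as a symbol or synonym in the RefSeq annotation of TAIR10.1. The tested libraries were 3 of *trm5-1*, a homozygous T-DNA insertion line in *TRM5* (AT3G56120), and they were set against 3 libraries of wild type Columbia (Col-0), with no other treatment in either genotype. The labels give the tissue as leaf of 20-day-old plants in both genotypes, although a legend elsewhere in the sources has younger seedlings. The mutant was represented by a single insertion allele. A second assay of the series, tRNA sequencing of seedlings, does not measure these mRNAs and was not used.

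Glutathione S-transferases join the tripeptide glutathione to reactive, electrophilic molecules, which marks these for removal, and some members instead bind and carry small molecules or take part in the synthesis of sulfur-containing defence compounds. In plants the phi and tau classes are the large ones, and many tau genes stand next to each other in tandem arrays. Glutathione conjugates are pumped into the vacuole by ABCC transporters and broken down there. Many GST genes are known for rapid induction by herbicide safeners, oxidised lipids and salicylic acid, in part through TGA transcription factors, which bind the as-1 element with its core TGACG.

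Library totals ran between 21450866 and 26927531 counts in *trm5-1* and between 14954658 and 26264021 counts in wild type, and 19408 genes had enough counts to be tested. *TRM5* itself, the mutated gene, had 4.92, 2.75 and 4.08 CPM (counts scaled to a common library size with TMM factors) in *trm5-1* replicates 2, 3 and 4, against 13.3, 22.8 and 19.7 CPM in wild type replicates 2, 3 and 4. All 3 *trm5-1* libraries lay below all 3 wild type libraries for *TRM5* (log2 fold change -2.25, SE 0.31, edgeR quasi-likelihood test with Benjamini-Hochberg adjusted p = 0.0226). Replicate numbers are those of the labels, and the order 2, 3, 4 is kept for all triplets of values below.

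The wild type libraries differed strongly among themselves. *CAB2*, a chlorophyll-binding protein gene of the leaf, had 360, 377 and 365 counts in *trm5-1*, against 634, 223288 and 124083 counts in wild type, so that for this gene wild type replicate 2 stood near the mutant and far from the other wild type libraries. *RCA*, the activase of the carbon-fixing enzyme Rubisco, instead had 3355, 2257 and 2706 CPM in *trm5-1*, against 5078, 5134 and 5272 CPM in wild type, with wild type replicate 2 beside the other wild type libraries. The summed level of 5 leaf markers was 13898, 6843 and 10517 CPM in *trm5-1*, against 18413, 50587 and 38067 CPM in wild type, with 5 of 5 markers lower in every *trm5-1* library. The summed level of 5 root markers was 0.15 to 5.85 CPM in *trm5-1* and 0.44 to 21.0 CPM in wild type. *PYK10* made up almost all of the 5.85 CPM and of the 21.0 CPM, and the lower ends are a few counts of *PYK10*, *CASP1* or *PER27*. The summed level of 5 floral markers was 1.03 to 1.45 CPM in *trm5-1* and 3.78 to 13.0 CPM in wild type, where *AP1*, an inflorescence and flower identity gene, had 0 counts in every *trm5-1* library, 1 count in wild type replicate 2 and 72 and 47 counts in wild type replicates 3 and 4. The labels do not give a cause for these differences in marker levels, and their part in the GST results was not tested. Fewer cells of a type and less RNA per cell cannot be told apart in such bulk samples.

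Replicate 4 of each genotype lay between replicates 2 and 3 for most genes. This held for 68.4% of all genes tested in *trm5-1* and for 81.3% in wild type, and for 28 and 30 of the 31 tested GST members. A weighted sum of the counts of replicates 2 and 3 matched replicate 4 with a residual coefficient of variation of 6.91% in *trm5-1* and 6.96% in wild type, where counting noise of replicate 4 alone was 3.99% and 4.11% (genes with 200 or more counts). Per the methods, the replicates of a genotype are biological ones. The count of calls is therefore also given without replicate 4. Whether replicate 4 is independent of the others was not tested, and if it is not, each n of 3, its SD and each statement on 3 of 3 libraries rests on 2 independent libraries per genotype.

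Some members are so alike in sequence that short reads could be shared between them, and the starts of coding sequence of the pairs most alike are shown so that this can be judged. The first 90 coding bases of *GSTF2* (chr4:1111442-1111531, minus strand), *GSTF3* (chr2:852017-852106, minus strand), *GSTF6* (chr1:662102-662191, minus strand) and *GSTF7* (chr1:659616-659705, minus strand) are given from the RefSeq annotation of TAIR10.1, with capitals at the bases that differ within a pair.
GSTF2: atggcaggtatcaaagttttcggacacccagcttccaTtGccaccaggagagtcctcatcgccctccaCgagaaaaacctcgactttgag
GSTF3: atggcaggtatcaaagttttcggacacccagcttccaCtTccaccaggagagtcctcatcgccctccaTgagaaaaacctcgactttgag
GSTF6: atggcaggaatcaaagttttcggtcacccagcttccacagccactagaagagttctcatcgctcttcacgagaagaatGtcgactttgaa
GSTF7: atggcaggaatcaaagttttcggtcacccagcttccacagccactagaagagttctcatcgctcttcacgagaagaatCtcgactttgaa
Over these 90 bases *GSTF2* and *GSTF3* differed at 3 positions and *GSTF6* and *GSTF7* at 1. Over the whole coding sequence the identity was 94.5% for *GSTF2* with *GSTF3* and 94.3% for *GSTF6* with *GSTF7*. No stretch of 50 bases inside an exon was shared within the first pair. *GSTF6* and *GSTF7* shared 107 such stretches, about 10.3% and 10.0% of the distinct ones in the exons of each gene. Stretches that cross exon junctions were not counted. The counting of reads that match several genes is not stated, so the split between *GSTF6* and *GSTF7* is less certain than their sum.

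Members were called in both directions in *trm5-1*. Of the 31 members with enough counts to be tested (9 phi, 22 tau), 4 were higher (*GSTF7*, *GSTU8*, *GSTU9* and *GSTU10*) and 4 were lower (*GSTF11*, *GSTU17*, *GSTU26* and *GSTU28*) at an adjusted p under 0.05 in the edgeR quasi-likelihood test with Benjamini-Hochberg adjustment over all genes. Among all genes tested, 4.30% were called higher and 7.15% lower, 11.4% in all, beside 25.8% of the tested members. The remaining 23 members did not pass. Of all 31, 19 had a log2 fold change above 0 and 12 below. At an unadjusted p under 0.05 there were 8 members higher and 6 lower, 14 of 31, where 32.7% of all genes reached that level. The *trm5-1* libraries lay wholly above wild type for 9 members and wholly below for 7, and the genotypes overlapped for 15, whereas 19.7% of all genes lay wholly above and 20.0% wholly below. The median log2 fold change was 1.25 over the 9 phi members and 0.16 over the 22 tau members, beside -0.00094 over all genes.

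**Figure D1:**
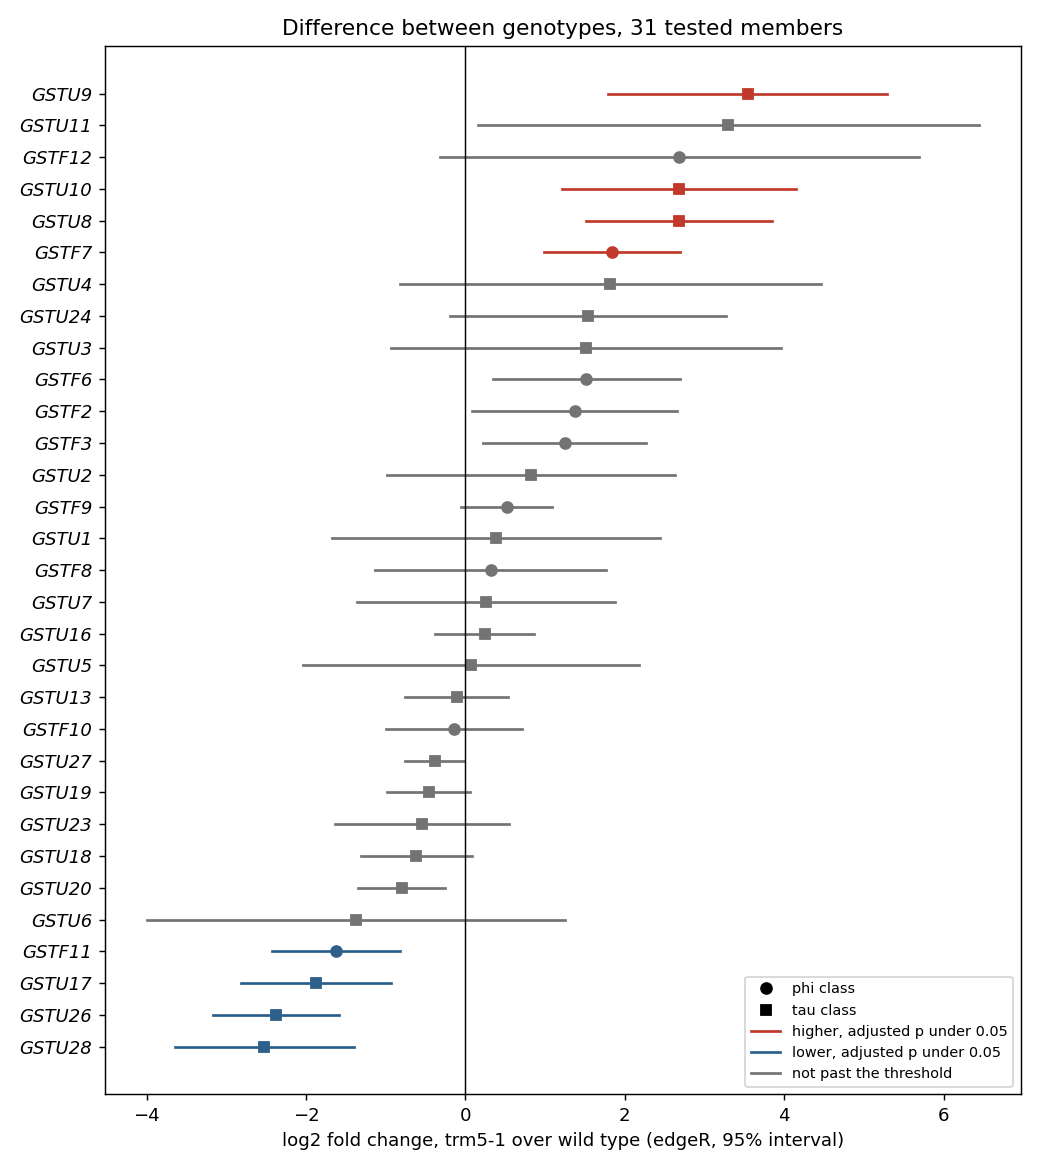
Log2 fold change of *trm5-1* over wild type for the 31 tested members (horizontal axis), with bars for the 95% interval of the edgeR fit, circles for phi and squares for tau members. The 4 members called higher (red) lie between 1.84 and 3.54 and the 4 called lower (blue) between -2.52 and -1.62, and several grey members, such as *GSTU11* and *GSTF12*, have estimates as large with intervals too wide to pass.

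The calls were lost when any of 4 single libraries was left out. No member was called by edgeR when *trm5-1* replicate 2, 3 or 4 or wild type replicate 4 was left out. An unadjusted p under 0.05 was then reached by 12 of 31, 12 of 32, 10 of 31 and 9 of 32 tested members. Among all genes, 5736 of 20186, 4949 of 20142, 4230 of 20110 and 3934 of 19626 reached that level in the same fits. Of all genes, 1.05% were called without *trm5-1* replicate 2 and 0.149% without *trm5-1* replicate 3, and 0 genes without replicate 4 of either genotype. Over all fits that leave out 1 library, the log2 fold change ran between 3.12 and 4.83 for *GSTU9*, between 2.40 and 2.92 for *GSTU8*, and between -2.54 and -2.24 for *GSTU26*. Without wild type replicate 2, the library with low *CAB2*, the same 8 members were called together with *GSTF6* and *GSTU11*, as were 37.6% of all genes. Without wild type replicate 3, *GSTU8*, *GSTU9*, *GSTU17* and *GSTU26* stayed called and *GSTU6* was called lower, beside 4.80% of all genes. With replicate 4 left out of both genotypes, edgeR called 0 of 31 members and 0 of 19255 genes, the same 8 members had an unadjusted p under 0.05 beside 8.94% of all genes, and DESeq2 called *GSTU8*, *GSTU9* and *GSTU10* higher and no member lower, beside 1.23% and 1.82% of genes. On all 6 libraries DESeq2 called 9 members higher, adding *GSTF2*, *GSTF3*, *GSTF6*, *GSTF9* and *GSTU11*, and 5 lower, adding *GSTU20*, where it called 9.15% of all genes higher and 14.7% lower.

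Most of the family's mRNA came from few genes. TPM divides each count by exon length and scales to the library's own sum, without TMM factors, so that levels of different genes can be compared. In TPM, the 8 most abundant members (*GSTU5*, *GSTF9*, *GSTF10*, *GSTU19*, *GSTF6*, *GSTU20*, *GSTF2* and *GSTF8*, in falling order) held 85.4% to 89.9% of the family's summed level in each library. None of the 8 members called by edgeR was among them. At the other end, 6 members averaged under 1 TPM. The phi genes summed to 4421, 3037 and 3953 TPM in *trm5-1*, against 2890, 1829 and 2285 TPM in wild type (3804 ± 704 TPM and 2334 ± 532 TPM, SD, n = 3 each). On this scale the mutant sums lay above all wild type sums, but *trm5-1* replicate 3 and wild type replicate 2 were close. Their TMM factors were 1.04 and 0.903, and dividing each sum by its factor would reverse the order of these libraries. The tau genes summed to 3335, 2538 and 3049 TPM in *trm5-1*, against 4753, 1436 and 2822 TPM in wild type. For the tau class the mutant sums lay inside the much wider wild type range (2974 ± 404 TPM and 3004 ± 1666 TPM).

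**Figure D2:**
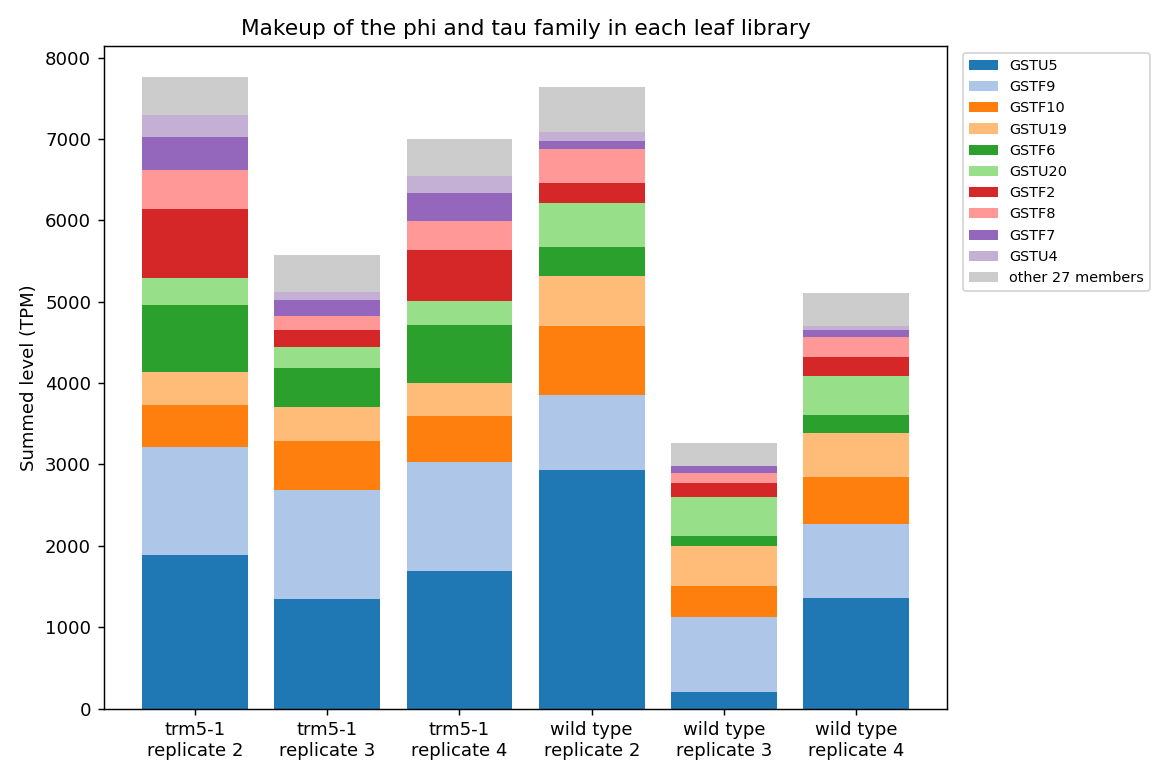
Summed level of the 37 members in TPM (vertical axis) in each of the 6 libraries, stacked by gene, with the 10 most abundant members in colour and the other 27 in grey. The total is 7756, 5575 and 7002 TPM in *trm5-1* and 7643, 3265 and 5106 TPM in wild type, and the dark blue *GSTU5* block is the part that differs most between the wild type libraries.

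*GSTU5* (AT2G29450), a tau gene of the array on chromosome 2, had the highest mean level of the family. It had 1551, 995 and 1288 CPM in *trm5-1*, against 2455, 153 and 1048 CPM in wild type. Its mutant values were close together and lay inside a 16.1-fold wild type range, and the fitted log2 fold change was 0.07 (SE 0.87, 95% interval -2.04 to 2.17, edgeR adjusted p = 0.968). *GSTU5* was 24.3%, 24.2% and 24.2% of the family's summed TPM in *trm5-1*, against 38.4%, 6.25% and 26.7% in wild type.

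**Figure D3:**
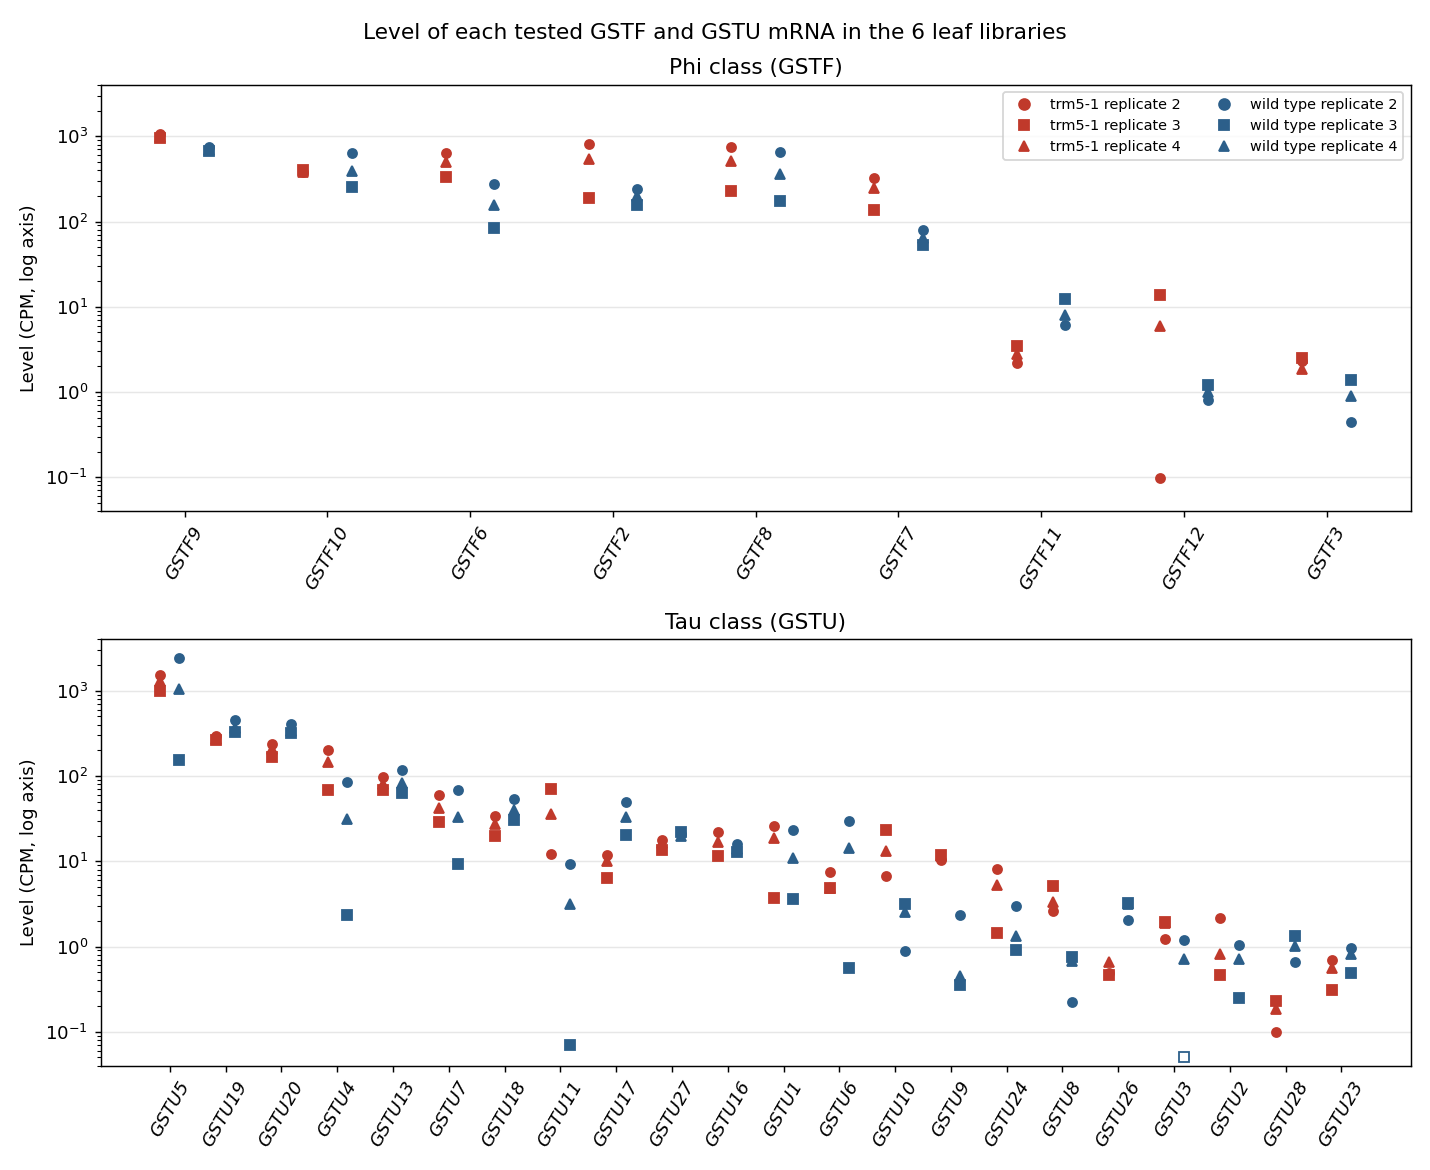
Level of each tested member in CPM (vertical log axis) in the 6 libraries, with *trm5-1* in red to the left of wild type in blue and a symbol shape per replicate; members are ordered by level within the phi class (top) and the tau class (bottom), and the open symbol marks a library with 0 counts. Red and blue points separate for the called members *GSTF7*, *GSTU8*, *GSTU9* and *GSTU10* (red above) and *GSTF11*, *GSTU17*, *GSTU26* and *GSTU28* (blue above). They also separate for members not called, namely *GSTF3*, *GSTF6*, *GSTF9*, *GSTU3* and *GSTU11* (red above) and *GSTU19*, *GSTU20* and *GSTU27* (blue above). The points of *GSTU4*, *GSTU5* and *GSTU6* spread widely inside wild type.

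Among the phi genes, *GSTF7* (AT1G02920), which responds to pathogens and salicylic acid, was higher in *trm5-1*. It had 321, 138 and 250 CPM in *trm5-1*, against 80.5, 53.6 and 64.1 CPM in wild type. The lowest mutant library lay above the highest wild type library, and the level was 3.57-fold higher (log2 fold change 1.84, SE 0.35, edgeR adjusted p = 0.0342). Its neighbour and near copy *GSTF6* (AT1G02930), which joins glutathione to the precursor of camalexin, a defence compound, had 634, 334 and 504 CPM in *trm5-1*, against 276, 84.3 and 154 CPM in wild type. The *GSTF6* libraries did not overlap either, but the difference did not pass (log2 fold change 1.52, SE 0.49, edgeR adjusted p = 0.0885). With the counts of *GSTF6* and *GSTF7* added, the log2 fold change was 1.61 and did not pass (edgeR adjusted p = 0.0647).

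*GSTF2* (AT4G02520), which binds auxin and camalexin and is induced by ethylene and salicylic acid, had 814, 186 and 546 CPM in *trm5-1*, against 240, 157 and 202 CPM in wild type. The genotypes overlapped because *trm5-1* replicate 3 fell inside the wild type range (log2 fold change 1.37, SE 0.53, edgeR adjusted p = 0.134). Its near copy *GSTF3* (AT2G02930) was far less abundant, with 47, 66 and 50 counts in *trm5-1*, against 6, 39 and 24 counts in wild type. For *GSTF3* each mutant library was above each wild type library in CPM, without passing the test (log2 fold change 1.25, SE 0.42, edgeR adjusted p = 0.101).

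*GSTF9* and *GSTF10* are neighbours on chromosome 2 and had the highest mean levels of the phi class over all 6 libraries, although *GSTF6* and *GSTF2* averaged 674 and 564.2 TPM in *trm5-1*, where *GSTF10* averaged 563.8 TPM. *GSTF9* (AT2G30860), with a known part in redox homeostasis, had 1059, 957 and 988 CPM in *trm5-1*, against 747, 670 and 681 CPM in wild type. The mutant libraries lay above wild type with little spread in either genotype, and the difference was small and did not pass (log2 fold change 0.52, SE 0.24, edgeR adjusted p = 0.184). *GSTF10* (AT2G30870), also known as ERD13 and a partner of the receptor kinase BAK1, had 381, 398 and 384 CPM in *trm5-1*, against 632, 255 and 395 CPM in wild type. The mutant values of *GSTF10* lay inside the wild type range (log2 fold change -0.14, 95% interval -0.99 to 0.71, edgeR adjusted p = 0.804). *GSTF8*, a stress marker whose product can enter the chloroplast, had 226 to 741 CPM in *trm5-1* and 176 to 649 CPM in wild type and overlapped throughout.

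*GSTF11* (AT3G03190), which acts in aliphatic glucosinolate synthesis, was lower in *trm5-1*. It had 45, 92 and 75 counts in *trm5-1*, against 82, 344 and 212 counts in wild type, and in CPM every mutant library was below every wild type library. The level was 3.08-fold lower (log2 fold change -1.62, SE 0.33, edgeR adjusted p = 0.0379). *GSTF12* (AT5G17220), known as TT19 and needed for anthocyanin transport to the vacuole, had 2, 358 and 161 counts in *trm5-1*, against 11, 34 and 27 counts in wild type. *GSTF12* was thus both lowest and highest in the mutant, and the estimate was wide (log2 fold change 2.68, SE 1.24, edgeR adjusted p = 0.189).

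*GSTU8*, *GSTU9* and *GSTU10* were the tau genes higher in *trm5-1*, and they lie apart from each other on chromosomes 3, 5 and 1. *GSTU9* (AT5G62480) had 211, 315 and 313 counts in *trm5-1*, against 32, 10 and 12 counts in wild type. Its mutant libraries were nearly equal in CPM (10.4, 12.0 and 11.6) and far above wild type (2.37, 0.35 and 0.45), an 11.7-fold difference (log2 fold change 3.54, SE 0.72, edgeR adjusted p = 0.0381). *GSTU10* (AT1G74590) had 138, 616 and 353 counts in *trm5-1*, against 12, 89 and 68 counts in wild type. Both genotypes were lowest in replicate 2 for *GSTU10*, and the mutant libraries all lay above wild type (log2 fold change 2.68, SE 0.61, edgeR adjusted p = 0.0433). *GSTU8* (AT3G09270) had 53, 133 and 91 counts in *trm5-1*, against 3, 21 and 18 counts in wild type, again with no overlap in CPM (log2 fold change 2.68, SE 0.48, edgeR adjusted p = 0.0312).

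*GSTU11* (AT1G69930) had 247, 1871 and 965 counts in *trm5-1*, against 126, 2 and 85 counts in wild type. In CPM the mutant libraries (12.2, 71.4 and 35.8) lay above wild type (9.33, 0.07 and 3.18), but wild type replicates 2 and 3 were themselves 132-fold apart. The log2 fold change was 3.30 with an SE of 1.30 and did not pass (edgeR adjusted p = 0.138). Its tandem neighbour *GSTU12* had at most 16 counts in any library and was not tested.

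*GSTU17*, *GSTU26* and *GSTU28* were the tau genes lower in *trm5-1*. *GSTU17* (AT1G10370), known as ERD9, with a part in light, abscisic acid and drought responses, had 11.7, 6.41 and 10.0 CPM in *trm5-1*, against 49.9, 20.2 and 33.1 CPM in wild type. The highest mutant value was below the lowest wild type value, and the level was 3.67-fold lower (log2 fold change -1.87, SE 0.39, edgeR adjusted p = 0.0384). The gene next to it, *GSTU18*, overlaps the model of *GSTU17* by 71 bases on the same strand and had a log2 fold change of -0.62 (SE 0.29, edgeR adjusted p = 0.190), with the genotypes overlapping.

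*GSTU26* (AT1G17190), which is induced by chloroacetanilide herbicides, had 10, 12 and 18 counts in *trm5-1*, against 28, 91 and 84 counts in wild type. In CPM the mutant libraries (0.49, 0.46 and 0.67) were below wild type (2.07, 3.22 and 3.14), a 5.20-fold lower level (log2 fold change -2.38, SE 0.33, edgeR adjusted p = 0.0230). In the same array on chromosome 1, *GSTU24* (AT1G17170), which can detoxify the explosive TNT, had 166, 38 and 141 counts in *trm5-1*, against 40, 26 and 36 counts in wild type, a difference of the other sign that did not pass (log2 fold change 1.54, SE 0.72, edgeR adjusted p = 0.191). *GSTU28* (AT1G53680) had 2, 6 and 5 counts in *trm5-1*, against 9, 38 and 27 counts in wild type. It was the least abundant of the called members, and its mutant libraries lay below wild type in CPM (log2 fold change -2.52, SE 0.47, edgeR adjusted p = 0.0319).

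The array of *GSTU19* to *GSTU23* held a pair of abundant genes with lower values in *trm5-1* that did not pass. *GSTU20* (AT1G78370), which acts in aliphatic glucosinolate synthesis and binds the jasmonate-conjugating enzyme JAR1, had 241, 167 and 205 CPM in *trm5-1*, against 409, 320 and 339 CPM in wild type. Every mutant library was below every wild type library (log2 fold change -0.80, SE 0.23, edgeR adjusted p = 0.0665). *GSTU19* (AT1G78380), an abundant safener-induced enzyme, had 294, 268 and 274 CPM in *trm5-1*, against 459, 327 and 365 CPM in wild type, also without overlap (log2 fold change -0.46, SE 0.21, edgeR adjusted p = 0.187). *GSTU27* (AT3G43800), on chromosome 3, was likewise below wild type in each mutant library, with 17.8, 13.5 and 16.6 CPM in *trm5-1*, against 20.7, 22.1 and 19.8 CPM in wild type (log2 fold change -0.39, SE 0.15, edgeR adjusted p = 0.140).

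The 7 tau genes *GSTU1* to *GSTU7* stand side by side on chromosome 2, and none of them was called. Their log2 fold changes ran between -1.37 and 1.82, with 6 of 7 above 0. Inside wild type, however, 8 of the 31 tested members differed over 4-fold between replicates 2 and 3 with 0.1 CPM added to each value, beside 12.2% of all genes, and 6 of these 8 were *GSTU1*, *GSTU3*, *GSTU4*, *GSTU5*, *GSTU6* and *GSTU7*. The other two were *GSTU9* and *GSTU11*. All 8 were higher in wild type replicate 2, the library with low *CAB2*. *GSTU2* was 4.18-fold higher there too when nothing was added, so that its side of the 4-fold line depends on the added value. *GSTU6* (AT2G29440) had 153, 129 and 130 counts in *trm5-1*, against 405, 16 and 386 counts in wild type, so that the mutant lay inside a wild type range that was 52.9-fold in CPM with nothing added. *GSTU4* (AT2G29460) had 201, 68.3 and 146 CPM in *trm5-1*, against 84.7, 2.37 and 31.2 CPM in wild type, a 35.7-fold range. Between *trm5-1* replicates 2 and 3, 6 of the 31 tested members differed over 4-fold with 0.1 CPM added. They were *GSTF2*, *GSTF12*, *GSTU1*, *GSTU2*, *GSTU11* and *GSTU24*. The share over all genes was not taken for these 2 libraries, so whether 6 is unusual cannot be judged.

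The choice of wild type library therefore set the direction for part of the family. Against wild type replicate 2 alone, the mean of the *trm5-1* libraries was higher for 14 of 31 members, with a median log2 difference of -0.38. Against wild type replicate 3 alone it was higher for 22 of 31 members, with a median log2 difference of 1.32. The sign was opposite for 8 members. These differences between single libraries have no replicate check.

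**Figure D4:**
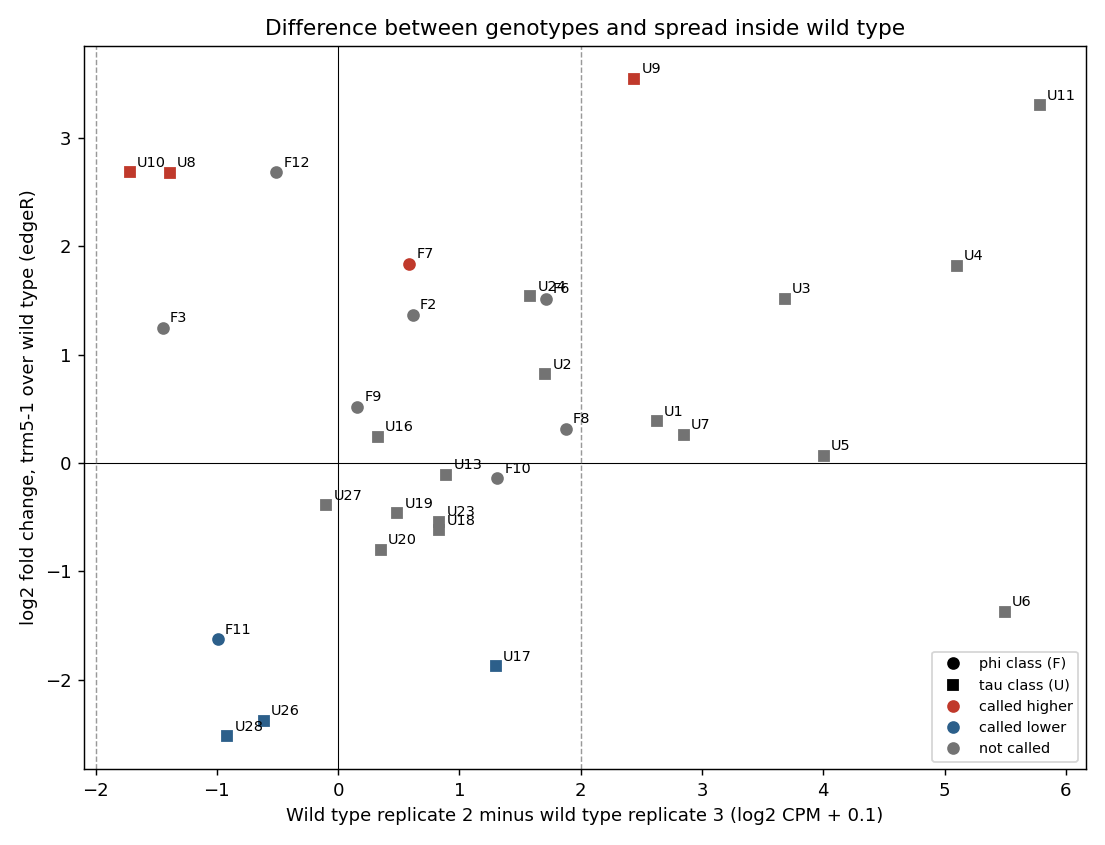
Log2 fold change of *trm5-1* over wild type (vertical axis, edgeR) against the log2 difference of wild type replicate 2 minus replicate 3 (horizontal axis, CPM with 0.1 added) for the 31 tested members; dashed lines mark a 4-fold difference, and the letters GST are left off the names. The members to the right of the dashed line are 8 tau genes, and of these only *GSTU9* was called.

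The other tested tau members, *GSTU2*, *GSTU13*, *GSTU16* and *GSTU23*, overlapped between genotypes, with log2 fold changes between -0.54 and 0.82. *GSTU13* (AT1G27130), which acts in an indole-based defence pathway, was the most abundant of them, with 97.0, 68.0 and 80.1 CPM in *trm5-1*, against 117, 63.1 and 83.6 CPM in wild type (95% interval of the log2 fold change -0.75 to 0.54). The 6 members not tested were *GSTF14*, *GSTU12*, *GSTU14*, *GSTU21*, *GSTU22* and *GSTU25*. No library held more than 16 counts of any of them, and a difference was not detectable at this depth.

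Proteins were measured in leaves as well, and GSTF2, GSTF6, GSTF9 and GSTU20 are on the list of proteins with higher abundance in the mutant. The protein list used a fold threshold together with a p threshold, which the methods give as Benjamini-Hochberg adjusted. The mRNA calls used an adjusted p too, but with no fold threshold, so protein and mRNA calls are not on like terms. At the mRNA level none of these 4 genes passed the edgeR test. On all 6 libraries DESeq2 called *GSTF2*, *GSTF6* and *GSTF9* higher and *GSTU20* lower. With replicate 4 left out of both genotypes, DESeq2 called none of the 4. *GSTF6* and *GSTF9* mRNA was higher in 3 of 3 mutant libraries than in any wild type library. *GSTF2* mRNA was higher than in any wild type library in *trm5-1* replicates 2 and 4 only. *GSTU20* mRNA was lower in 3 of 3 mutant libraries, the opposite direction to its protein. The protein values were not analysed here, and mRNA and protein of the same plants could not be paired.

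The as-1 core TGACG was searched on both strands in the 500 bases before the annotated start of each gene, because TGA factors are known regulators of this family. It was present for 19 of 37 members (51.4%), beside 33.2% of 18810 tested genes with such a window. Of the called members it was found before *GSTU8* and *GSTU9*, 2 of the 4 that were higher, and before *GSTU26*, 1 of the 4 that were lower. The 30 bases around each match are shown for these genes on TAIR10.1, read on the strand that carries the core, with the core in capitals. They are chr3:2849956-2849985 (plus strand) for *GSTU8*, chr5:25089753-25089782 (minus strand) and chr5:25089708-25089737 (plus strand) for *GSTU9*, and chr1:5875026-5875055 (minus strand) for *GSTU26*.
GSTU8: taccgacagctttTGACGgattcaatactt
GSTU9, minus strand: attggggttttgTGACGattgtcgagtttg
GSTU9, plus strand: agaagagtctttaTGACGtgtgtaaatcat
GSTU26: tagtctactaaaaTGACGtttaaagtaaaa
The matches lie 287 bases before the start of *GSTU8*, 144 and 99 bases before that of *GSTU9* and 257 bases before that of *GSTU26*. The W-box core TTGAC, bound by WRKY factors, was found for 31 of 37 members (83.8%), beside 67.3% of tested genes, and for 4 of 4 members called higher and 4 of 4 called lower. The letters TTGACG hold both cores, so the searches overlap. Each core was thus found before members called in both directions.

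Around the family, the genes of the related lists that were called were all higher in *trm5-1*. The shares below stand beside 11.4% of all genes called, 4.30% higher and 7.15% lower, and the lists were chosen with earlier results of these data known. Of 9 tested genes of glutathione synthesis and recycling, 1 (11.1%) was higher and 0 lower. This share is near the 11.4% of all genes called and above the 4.30% called higher, but it is 1 gene. It was *GGT4*, a vacuolar transpeptidase that starts the breakdown of glutathione conjugates. It had 55.3, 75.7 and 61.8 CPM in *trm5-1*, against 39.3, 20.6 and 28.2 CPM in wild type, without overlap (log2 fold change 1.13, SE 0.27, edgeR adjusted p = 0.0462). Of 4 tested ABCC transporters of the vacuole, 1 (25%) was higher and 0 lower. This was *ABCC3*, a pump of glutathione conjugates, with 456, 360 and 409 CPM in *trm5-1*, against 55.2, 39.8 and 47.0 CPM in wild type. The *ABCC3* libraries of each genotype were close together and far apart between genotypes, 8.63-fold higher in *trm5-1* (log2 fold change 3.11, SE 0.23, edgeR adjusted p = 0.0107).

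Of 18 genes of the xenobiotic and electrophile response, 4 (22.2%) were higher and 0 lower. Their median log2 fold change was 0.76, with 17 of 18 above 0, beside 9687 of all 19408 genes above 0. For some genes not called, such as *OPR1* and *ANAC032*, the *trm5-1* mean lay between wild type replicates 2 and 3. The sign of these genes therefore depends on the wild type library used. The called genes were *ABCG40*, a plasma membrane transporter of abscisic acid (log2 fold change 3.52, SE 0.46, edgeR adjusted p = 0.0211), *UGT73B4*, a glucosyltransferase (3.76, SE 0.75, adjusted p = 0.0361), *UPOX*, a mitochondrial oxidative stress gene (1.49, SE 0.35, adjusted p = 0.0457), and *TGA5*, a TGA factor (0.85, SE 0.17, adjusted p = 0.0361). *TGA5* had 16.8, 23.1 and 22.5 CPM in *trm5-1*, against 12.2, 11.2 and 11.2 CPM in wild type. Of 11 tested genes of the other GST classes, 1 (9.09%) was higher and 0 lower. This was the lambda class gene *GSTL1*, with 45, 219 and 143 counts in *trm5-1*, against 1, 4 and 0 counts in wild type (edgeR adjusted p = 0.0241), and it was all but undetected in wild type leaves. Of the 2 tested phi and tau genes outside the given list, *GSTF4* and *GSTF13*, neither was called.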

How the data were processed

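Leaf mRNA was sequenced in 6 libraries, 3 per genotype. The authors trimmed reads with Trim Galore 0.4.2, mapped them to TAIR10 with STAR 2.5.3 and assigned them to genes using featureCounts (its version, strand and multi-mapping settings are not given in the sources used here). The authors deposited raw counts and a normalized signal table, each library's counts over its DESeq2 size factor, which served only for limma. The tRNA files were not used.

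The raw counts were analysed by edgeR 4.0.16 (R 4.3.3) (filterByExpr, TMM, quasi-likelihood fit on genotype, Benjamini-Hochberg for the 19408 genes kept, called at adjusted p under 0.05). The common biological coefficient of variation was 34.4%. The standard error was the size of the log2 fold change divided by the square root of F. TPM used exon lengths of TAIR10.1, found for 28932 genes, and no TMM factors. Sequences came from the same RefSeq assembly. The scripts were tested on simulated data. Values per library are given for members called, with an unadjusted p under 0.05, with a protein listed as changed, or among the 6 most abundant, while *GSTF12*, *GSTU4*, *GSTU6*, *GSTU13*, *GSTU24*, *CAB2* and *RCA* were added after their values were seen. Of the other lists, called genes are named. Members and lists were chosen with earlier results of these data known. Alternatives were DESeq2 1.42.0, limma 3.58.1, other normalizations and filters, leaving out libraries, a replicate block and summed paralogs.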

Additional observations from a re-analysis of the deposited data

How the results depend on the processing

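The same 8 members were called with RLE normalization, with no filter on low counts and with limma on the normalized values (pseudocounts of 1 and 0.5). Upper quartile normalization lost *GSTU10* and gained *GSTU20*, a minimum of 10 counts in every library left out *GSTU8* and *GSTU28*, and summing the near copies left 7 calls, without *GSTF7*. DESeq2 called 9 members higher and 5 lower, and 2006 and 3227 of all genes against 835 and 1387 with edgeR. Its calls without replicate 4, an alternative chosen after seeing the data, were 3 higher and 0 lower, and edgeR then called 0 and 0. Leaving out 1 library at a time gave 0 to 6 members higher and 0 to 4 lower. Among members that were not called, the log2 fold change turned sign in these leave-one-out fits for *GSTF8* (-0.081 to 0.89), *GSTF10* (-0.41 to 0.28), *GSTU1* (-0.13 to 1.18), *GSTU5* (-0.46 to 1.11), *GSTU7* (-0.20 to 1.06) and *GSTU13* (-0.30 to 0.18). *GSTU5* was also at -0.029 (edgeR) and -0.046 (DESeq2) without replicate 4. No called member turned sign under any alternative, and the cause of the lost calls was not tested. With the replicate number as a block, edgeR called 0 members higher and 0 lower, and 0 of all 19408 genes. An unadjusted p under 0.05 was reached by 15 of 31 members in that fit, beside 5251 of the 19408 genes. The labels do not state whether same-numbered libraries are paired. Deviations of same-numbered libraries correlated at -0.04, -0.02 and 0.06 over 19408 genes. A correlation over all genes cannot show whether the members share a replicate effect, which was not tested. Members with few counts, such as *GSTU28*, are limited by depth, and with 3 libraries per genotype and the wide spread inside wild type, a call missed is no sign of equal levels.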
